A study of Mus musculus with 18 samples.

Results

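Invariant natural killer T (iNKT) cells at stage 1 (S1) were sorted from the thymus of mice with a conditional deletion of Mst1 (Mst1KO). They were compared, gene by gene, with the same cells from mice labelled wild type (WT). The samples were the 6 S1 arrays among the 18 of the study: 3 WT and 3 Mst1KO, chosen by their titles. All mice were C57BL/6. Mst1KO mice carried the Cd4Cre transgene and Mst1 fl/fl, so Cre driven by Cd4 sequences deletes the gene in cells that have expressed Cd4, iNKT cells among them. The labels give the other group only as WT and do not say whether these mice carried Cre, nor the age of either group. S1 cells were sorted as TCRb+, CD1d-PBS57 tetramer+ and CD24-, and negative for CD44 and NK1.1. The other 12 arrays hold S2 (CD44+, NK1.1-) and S3 (CD44+, NK1.1+) cells of both genotypes. They served to estimate the spread and to show the same genes at later stages. Each value is log2 expression, and a difference is Mst1KO minus WT with its standard error, from 3 arrays against 3. Of 13034 genes measured, a gene is called when its p from limma, adjusted by the Benjamini-Hochberg method over all of them, is under 0.05. Which array came from which mouse is not stated, and p-values therefore reflect variation among arrays, some of which may be technical.

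MST1, encoded by Stk4, is a serine/threonine kinase at the head of the Hippo pathway. In the canonical pathway MST1 and its paralogue MST2 (Stk3) act with the scaffold Sav1 and with Mob1 on the LATS kinases, which keep the coactivators YAP and TAZ from working with TEAD factors. In lymphocytes MST1 is best known for its partners RASSF5 and Rap1 in integrin adhesion, for FOXO factors and for NDR kinases, and its loss leaves few naive T cells in the periphery. iNKT cells recognise lipids on CD1d. They branch from CD4+CD8+ thymocytes, and after leaving the CD24+ step they divide in S1, produce IL-4, and pass to S2 and S3 while gaining effector programs.

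The sorted cells read as labelled. Zbtb16, which encodes PLZF, the factor that defines iNKT cells, was at 11.77 ± 0.05 (SD, n = 3) in WT and 11.76 ± 0.01 in Mst1KO at S1, against array medians of 4.81 to 4.91. Cd44 was at 5.53 ± 0.03 and 5.66 ± 0.32 at S1 and at 7.49 ± 0.19 or above in every S2 and S3 group. Klrb1c, which encodes NK1.1, and Cd24a lay below the array median on all 6 S1 arrays. The S1 arrays correlated at 0.985 to 0.989 within a genotype and at 0.979 to 0.987 between genotypes. A pair of arrays stood apart. Mst1KO replicate 1 was high in Cd8a, at 5.69 against 3.90 to 4.26 on the other 5 S1 arrays, and in Cd8b1, at 8.14 against 6.11 to 7.31. Thymocytes had been passed over CD8 microbeads before the sort, a step the labels call positive selection although iNKT cells carry little CD8. WT replicate 3 was high in a group of genes described further on.

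Stk4 itself differed little at S1. It was at 8.10, 7.90 and 7.70 on the WT arrays and at 7.56, 7.60 and 7.67 on the Mst1KO arrays, which did not overlap but nearly met. The difference was -0.29 ± 0.11 (limma with Benjamini-Hochberg, adjusted p = 0.34), and the exact two-sided permutation test gave p = 0.1, the smallest that 3 arrays against 3 can give. No source used here says whether the probe set reads the deleted part of the gene, so Stk4 is a weak check of the labels. Stk3, which encodes MST2, had no probe set with its symbol alone and was not analysed.

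At S1, 43 genes were called (limma), 34 higher and 9 lower in Mst1KO. This is 0.33% of the genes tested, 0.261% for the higher and 0.0691% for the lower genes. In all 43 the 3 arrays of each genotype did not overlap, which held for 18.1% of all genes. Only 7 of the 43 differed by over 2-fold and 10 by under 1.5-fold, the smallest being 1.31-fold. All differences together were centred near 0, with 51.9% of genes above 0 and a median of 0.01, and 1457 genes (11.2%) had an unadjusted p under 0.05. These shares are the background for the counts of list members given further on. The count fell whichever S1 array was left out, though having fewer arrays by itself makes calls harder to reach. Without WT replicate 1, 2 or 3 it was 20, 14 or 23, and without Mst1KO replicate 1, 2 or 3 it was 9, 12 or 13. In each of these 6 fits 6 genes stayed called: Laptm4b, Matn2, Tlr1, Fcho2, Qpct and Rasgrp2. Neurl3 and Ly6c2 did so in 5 of the 6, Nr1d1 in 3, while 9 genes did so in 2, 12 in 1 and 13 in 0. A fit on the 6 S1 arrays alone called 5 genes: Laptm4b, Matn2, Neurl3, Tlr1 and Igfbp7, the last at -1.0 (adjusted p = 0.0191). None of the 43 changed sign in any alternative tried, but for most alternatives this was fixed in advance. Leaving out an array cannot reverse groups that do not overlap. Other filters, variance models, blocks and the 1.5-fold minimum left the differences themselves unchanged. Probe sets with no gene symbol or with several were fitted apart, and 3 of 8443 (0.0355%) and 2 of 1021 (0.196%) were called.

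**Figure D1:**
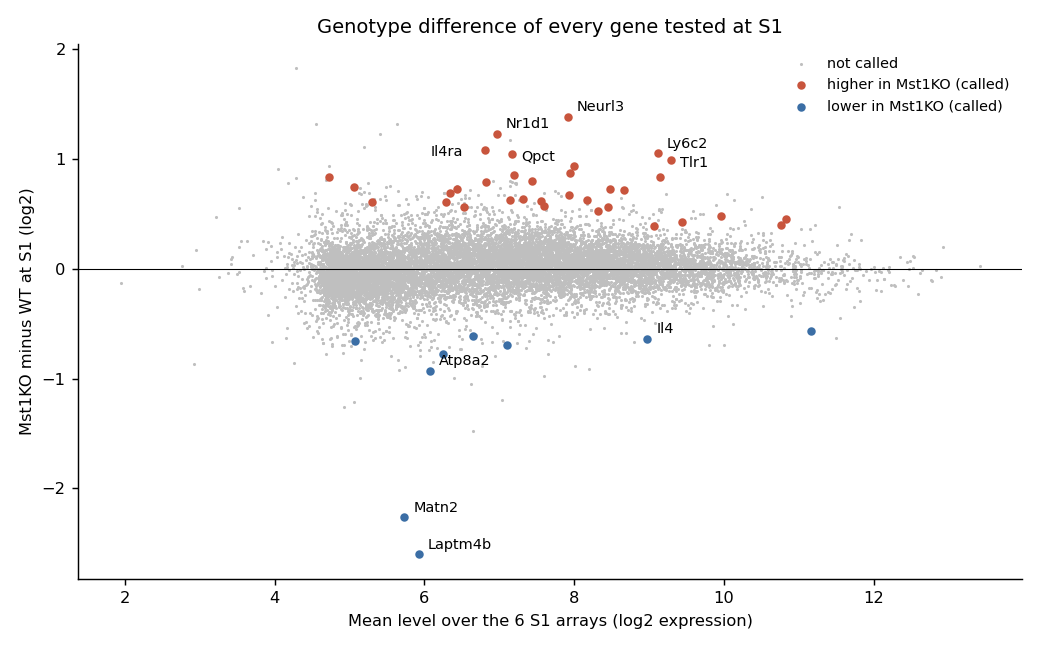
Genotype difference at S1 (Mst1KO minus WT, log2) of each gene tested against its mean level over the 6 S1 arrays (log2 expression). Grey points were not called, red points are the 34 called higher and blue points the 9 called lower; Laptm4b and Matn2 lie far below all other genes.

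Laptm4b and Matn2 were the genes that fell furthest. Laptm4b encodes a membrane protein of late endosomes and lysosomes. It was at 7.40, 7.0 and 7.27 on the WT arrays and at 4.38, 4.87 and 4.61 on the Mst1KO arrays. The Mst1KO values lay within or below the range of the array medians, so the difference of -2.60 ± 0.21 (6.07-fold lower, limma adjusted p = 1.83e-05) may understate the loss. Matn2, the gene for the matrix adaptor protein matrilin-2, was at 6.67, 6.73 and 7.19 in WT and at 4.42, 4.60 and 4.78 in Mst1KO. Its Mst1KO values also lay below those medians, with a difference of -2.26 ± 0.21 (4.80-fold lower, adjusted p = 5.21e-05). These were also the only genes called when a change of at least 1.5-fold was made part of the limma test, and the only ones of the 43 called under every alternative tried.

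Most other lysosome genes were near 0 or slightly above. Of 35 lysosome genes tested, including Lamp1, cathepsins, acid hydrolases and proton pump subunits, Laptm4b was lower, none was higher, and 25 had differences above 0, with a median of 0.08. Cd63 was at 0.59 ± 0.21 and the sphingolipid activator gene Psap at 0.21 ± 0.08, with limma adjusted p = 0.259 and 0.327.

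The position of the largest losses in the gene order was looked up in the RefSeq annotation of mouse assembly GRCm38.p6. Laptm4b and Matn2 are next to each other, and lie 9 and 8 protein-coding genes from Stk3, the gene of the MST1 paralogue MST2. Trio, a called gene that encodes a guanine nucleotide exchange factor, lies 27 genes from Stk3 on the same side and was higher, by 0.69 ± 0.14. Serinc3 and Ada lie 9 and 7 genes from Stk4, the targeted gene. Serinc3, a multipass membrane protein gene, was lower, and Ada, which encodes adenosine deaminase, was higher. Within 10 protein-coding genes on either side of Stk4, 2 of 11 genes tested were called (18.2%), and around Stk3 2 of 13 (15.4%), against 0.33% overall. Within 40 genes on either side the shares were 2 of 44 (4.55%) around Stk4 and 3 of 45 (6.67%) around Stk3. The 2 called genes nearest Stk3 are Laptm4b and Matn2 themselves, whose position led to that window. The shares around Stk3 were thus raised by the choice of window and are a description only. The 6 genes tested between Ada and Stk4 had differences from -0.19 (Rims4) to 0.10 (Ccn5). The part of linkage to either kinase gene in these differences was not tested.

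**Figure D2:**
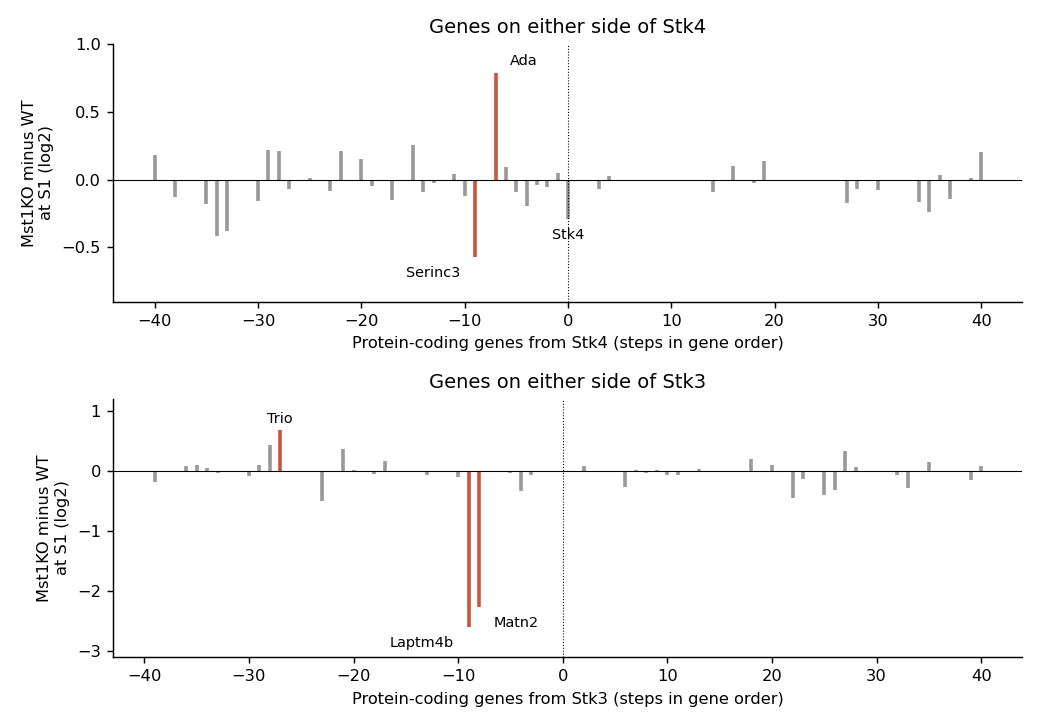
Genotype difference at S1 (log2) of the genes tested within 40 protein-coding genes on either side of Stk4 (top) and Stk3 (bottom), by step in gene order; red bars were called. The called genes are Serinc3 and Ada near Stk4, and Trio, Laptm4b and Matn2 near Stk3, while Stk4 itself (-0.29) was not called.

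The 7 other genes that were lower had smaller differences, from -0.57 to -0.93. Atp8a2 encodes a flippase that moves phosphatidylserine to the inner leaflet of membranes. Its levels were 6.47, 6.47 and 6.69 in WT and 5.45, 5.59 and 5.81 in Mst1KO, a difference of -0.93 ± 0.17 (limma adjusted p = 0.0238). Serinc3 was among the brighter genes of the set, at 11.36, 11.32 and 11.65 in WT and at 10.89, 10.91 and 10.82 in Mst1KO. It differed by -0.57 ± 0.11. A pair of genes for RNA-acting proteins were lower as well: Adarb1, which encodes the adenosine-to-inosine editing enzyme ADAR2 (-0.78 ± 0.13), and Ddx43, a DEAD-box helicase gene (-0.61 ± 0.10). Ttc39c differed by -0.70 ± 0.12, from 7.44 ± 0.21 to 6.75 ± 0.12 (SD, n = 3). Of the 6 fits without an S1 array, Adarb1, Ddx43 and Ttc39c were called in 2 and Atp8a2 and Serinc3 in 0.

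Il4 and Il4ra, ligand and receptor of the same cytokine pathway, moved in opposite directions. IL-4 is the signature product of early iNKT cells, and Il4 was at 9.21, 9.29 and 9.39 on the WT arrays and at 8.44, 8.75 and 8.78 on the Mst1KO arrays. All Mst1KO arrays lay below all WT arrays, with a difference of -0.64 ± 0.12 (limma adjusted p = 0.0272). Il4ra encodes the receptor chain that binds IL-4 and is shared by the receptors for IL-4 and IL-13. It was at 6.30, 6.15 and 6.36 in WT and at 7.53, 7.40 and 7.10 in Mst1KO, higher by 1.08 ± 0.18 (adjusted p = 0.016). Stat6, which carries the signal of this receptor, was at 9.39, 9.36 and 9.39 in WT and 9.77, 9.63 and 9.66 in Mst1KO, and at 0.31 ± 0.07 did not pass (adjusted p = 0.0884). Irs1, an adaptor of the insulin and IGF-1 receptors that the IL-4 receptor also uses, was lower, with a difference of -0.66 ± 0.13, from 5.57, 5.13 and 5.51 in WT to 4.75, 4.82 and 4.66 in Mst1KO. The Mst1KO values of Irs1 lay within or below the range of the array medians, so this gene was dim. Il4 lost its call in all 6 fits that left out an array. Il4ra was called in 2 of the 6 and Irs1 in 1, and Irs1 kept its call in only 5 of 16 alternatives.

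Around this pair, the other NKT2 and IL-4 genes did not follow in 1 direction. Of 18 tested, Il4 was lower, none was higher, and 8 had differences above 0, with a median of -0.06. Il6ra was at 0.65 ± 0.17, the transcription regulator gene Hivep3 at -0.38 ± 0.12, Maf, an activator of Il4, at -0.36 ± 0.14 and Il13 at -0.36 ± 0.18 (limma adjusted p = 0.111, 0.231, 0.326 and 0.455). In 13 of the 18 the genotypes did not overlap (72.2%, against 18.1% of all genes), 6 of them with Mst1KO higher and 7 with Mst1KO lower. Gata3, which drives Il4 transcription, was at 0.16 ± 0.08 and Zbtb16 showed the equal levels given above.

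Among 26 cytokine receptor chains Il4ra was the only called gene, and 20 had differences above 0, with a median of 0.17. Il21r was at 7.27, 7.50 and 7.54 in WT and at 8.18, 8.08 and 8.09 in Mst1KO (0.68 ± 0.17, limma adjusted p = 0.101). Tgfbr2, a chain of the TGF-beta receptor, was at 0.33 ± 0.08 and the interferon-gamma receptor chain Ifngr2 at 0.47 ± 0.16 (adjusted p = 0.0884 and 0.265). In 10 of the 26 the genotypes did not overlap (38.5%, against 18.1% of all genes), and all 10 were higher in Mst1KO, where 1332 of the 2362 such genes overall were higher. None of 18 JAK-STAT mediators and inhibitors was called by limma, and 4 had an unadjusted p under 0.05, where 11.2% of all genes did. Stat4, which relays IL-12 signals, differed most of them. It was at 4.87, 4.63 and 5.42 in WT and at 6.94, 6.30 and 5.62 in Mst1KO. The difference of 1.32 ± 0.29 (limma adjusted p = 0.0626) thus came with a wide spread in Mst1KO. Replicate 3 was the Mst1KO array nearest to WT. Leaving it out therefore had to raise the difference, which became 1.65 (limma adjusted p = 0.0312), and this does not make Stat4 a called gene.

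Neurl3 and Nr1d1 had the largest increases among the called genes, and the 250 bases before their start sites are shown for that reason. Laptm4b and Matn2, with the largest decreases, were to be shown too but had no promoter entry. Nr1d1 encodes REV-ERB alpha, a nuclear receptor that represses genes of the circadian clock at sites containing AGGTCA, the element it shares with ROR factors. Neurl3 encodes a RING-type ubiquitin ligase. The sequences are from RefSeq, GRCm38.p6, 5′ to 3′ on the strand of the gene; capitals mark AGGTCA.
Neurl3, chr1:36273426-36273675, minus strand: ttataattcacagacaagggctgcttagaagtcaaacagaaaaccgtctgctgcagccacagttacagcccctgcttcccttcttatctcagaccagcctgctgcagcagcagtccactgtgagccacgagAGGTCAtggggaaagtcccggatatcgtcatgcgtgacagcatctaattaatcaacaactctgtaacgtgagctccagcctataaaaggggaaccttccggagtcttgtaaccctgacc
Nr1d1, chr11:98775378-98775627, minus strand: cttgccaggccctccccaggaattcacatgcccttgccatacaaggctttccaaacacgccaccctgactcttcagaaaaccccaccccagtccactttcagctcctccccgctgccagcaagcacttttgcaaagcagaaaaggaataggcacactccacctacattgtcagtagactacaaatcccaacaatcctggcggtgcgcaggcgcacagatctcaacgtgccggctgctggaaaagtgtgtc
In the Neurl3 window the motif begins 119 bases before the start, and the Nr1d1 window held none of the motifs searched. Besides AGGTCA, the TEAD motif GGAATG, the FOXO motif GTAAACA, the KLF motif GGGTGTG and the E-box CACGTG were searched on both strands. Of the 43 called genes 32 had a promoter entry, 27 of them higher and 5 lower. Among the 27 higher genes AGGTCA was present in 4 (14.8%), against 10.8% of the genes tested and 13.8% of all promoters. GGAATG was in 3 (11.1%), against 10.4% and 12.6%. GGGTGTG was in 3, those of Arhgef18, Hcst and Itga4 (11.1%), against 7.45% and 6.85%, GTAAACA in 0 against 2.19% and 3.09%, and CACGTG in 1, that of Klf6 (3.7%), against 8.38% and 6.05%. Among the 5 lower genes GGAATG was in 2, Il4 and Irs1, and CACGTG in 1, Irs1, while the other 3 motifs were in 0. These are counts of letters in a window and do not show binding.

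Neurl3 was at 6.94, 7.24 and 7.49 on the WT arrays and at 8.77, 8.39 and 8.65 on the Mst1KO arrays, the largest increase of the 43 at 1.38 ± 0.20 (2.60-fold, limma adjusted p = 0.00909). Nr1d1 was at 6.67, 6.57 and 5.83 in WT and at 7.61, 7.57 and 7.56 in Mst1KO. Its Mst1KO arrays were close together, and the spread lay in WT, where replicate 3 was lowest; the difference was 1.23 ± 0.20 (adjusted p = 0.016). Thra, which encodes thyroid hormone receptor alpha, lies next to Nr1d1 on the opposite strand and overlaps it, so signal from the genes may not be fully separate. Thra was at 6.06, 5.98 and 5.92 in WT and 6.70, 6.60 and 6.48 in Mst1KO (0.61 ± 0.11, adjusted p = 0.0222). Of 17 clock genes Nr1d1 was the only one called, and the median was 0.11. The output gene Dbp was at 0.32 ± 0.13, Npas2 at 0.30 ± 0.18, the paralogue Nr1d2 at 0.27 ± 0.19 and Arntl, a known target of REV-ERB alpha, at 0.15 ± 0.12, with adjusted p from 0.334 for Dbp to 0.707 for Arntl.

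**Figure D3:**
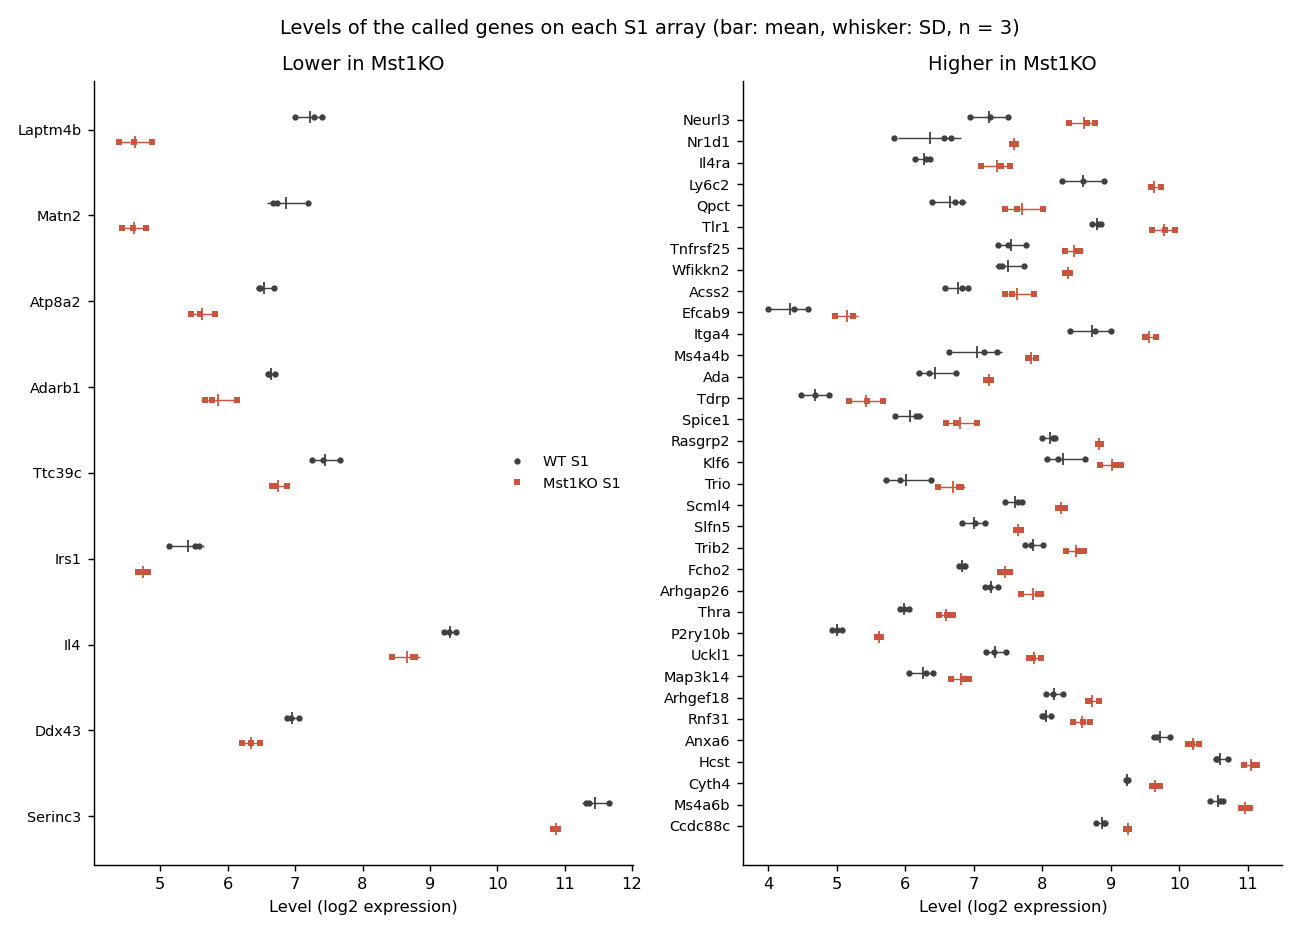
Log2 expression of the 9 genes called lower (left) and the 34 called higher (right) on each S1 array, with WT in black and Mst1KO in red; each point is an array, the bar the mean and the whisker the SD (n = 3). In none of the 43 do the genotypes overlap, and Nr1d1, Ms4a4b and Trio show a wide WT spread.

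Itga4 and several genes for regulators of small GTPases were among the 34, and were set together by role after their values were seen. Itga4 encodes the alpha 4 integrin chain of VLA-4 and of the gut-homing receptor alpha 4 beta 7. It was at 9.0, 8.77 and 8.40 in WT and at 9.66, 9.50 and 9.50 in Mst1KO, higher by 0.83 ± 0.15 (limma adjusted p = 0.0213). Rasgrp2 encodes the exchange factor that loads Rap1, the GTPase that switches on integrins. It was at 7.99, 8.16 and 8.18 in WT and at 8.83, 8.85 and 8.82 in Mst1KO, a difference of 0.72 ± 0.11 (adjusted p = 0.00943) that kept its call whichever S1 array was left out. Also higher were the exchange factor genes Trio (0.69 ± 0.14) and Arhgef18 (0.56 ± 0.10), the GTPase-activating protein gene Arhgap26 (0.62 ± 0.12) and the ARF exchange factor gene Cyth4 (0.42 ± 0.08). Of the 6 fits without an S1 array, Itga4, Trio and Arhgef18 were called in 1 and Arhgap26 and Cyth4 in 0. Fcho2, which starts clathrin-coated pits, was at 6.85, 6.78 and 6.86 in WT and at 7.52, 7.47 and 7.38 in Mst1KO (0.62 ± 0.09, adjusted p = 0.00627). Anxa6, a calcium-dependent membrane-binding protein gene, was higher by 0.48 ± 0.09.

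Of the 26 chemokine receptor and adhesion genes Itga4 was the only one called, 14 had differences above 0 and the median was 0.02. Itgb7, the partner of alpha 4 in the gut-homing integrin, was at 9.54, 9.63 and 9.22 in WT and at 10.14, 9.84 and 9.90 in Mst1KO (0.50 ± 0.13, limma adjusted p = 0.137). Gpr183, the oxysterol receptor, was at 0.75 ± 0.21 and the sphingosine-1-phosphate receptor gene S1pr1 at 0.68 ± 0.16 (adjusted p = 0.152 and 0.0884). Cxcr3 lay the other way, at -0.51 ± 0.16 (adjusted p = 0.214).

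Tlr1, Tnfrsf25, Map3k14 and Rnf31, genes of innate sensing or NF-kB signalling set together after their values were seen, were higher. TLR1 pairs with TLR2 to bind bacterial lipopeptides, and Tlr1 was at 8.85, 8.72 and 8.81 in WT and at 9.94, 9.61 and 9.79 in Mst1KO. The arrays of each genotype lay close together, and the difference of 0.99 ± 0.12 (limma adjusted p = 0.00181) was called whichever S1 array was left out. Tnfrsf25 encodes the death receptor DR3, bound by the cytokine TL1A, and was at 7.75, 7.50 and 7.36 in WT and 8.33, 8.55 and 8.52 in Mst1KO (0.93 ± 0.18). Map3k14, the gene for the kinase NIK of the alternative NF-kB pathway, was higher by 0.56 ± 0.10, and Rnf31, which encodes HOIP of the linear ubiquitin ligase complex, by 0.52 ± 0.10. Without an S1 array, Map3k14 was called in 2 of 6 fits and Tnfrsf25 and Rnf31 in 0. Of 13 Toll-like receptor and adaptor genes 1 was called and 7 were above 0, with a median of 0.12, and Tlr7, which senses RNA, lay lower at -0.63 ± 0.19 (adjusted p = 0.196). Of 29 TNF receptor family members and ligands Tnfrsf25 alone was called, and the median was -0.01.

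The higher genes Ly6c2, Ms4a4b, Ms4a6b, Hcst and P2ry10b encode membrane proteins and were set together after their values were seen. Ly6c2, a Ly6C gene used as an NKT1 marker, was at 8.59, 8.28 and 8.90 in WT and at 9.74, 9.59 and 9.58 in Mst1KO, higher by 1.05 ± 0.16 (limma adjusted p = 0.00943). It has a near-identical neighbour, Ly6c1, and the probe set may read both. Ms4a4b and Ms4a6b, which encode membrane-spanning proteins and lie 3 genes apart, were higher by 0.79 ± 0.16 and 0.40 ± 0.08. Ms4a4b was at 7.14, 6.64 and 7.34 in WT and at 7.81, 7.79 and 7.91 in Mst1KO; members of this family resemble each other, which makes the split between them uncertain. Hcst, the gene for the NKG2D signalling adaptor DAP10, was higher by 0.45 ± 0.09 and P2ry10b, a G protein-coupled receptor gene, by 0.61 ± 0.12. Ly6c2 was called in 5 of the 6 fits without an S1 array, Ms4a4b and Hcst in 1, and Ms4a6b and P2ry10b in 0. Ly6c2 was the only called member of 23 NKT1 genes, of which 9 were above 0 with a median of -0.17. None of 19 NKT17 genes was called by limma at S1, and 5 had an unadjusted p under 0.05, where 11.2% of all genes did. Of the 19, 12 were above 0 (63.2%, against 51.9% of all genes), with a median of 0.07.

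Qpct, Acss2, Ada and Uckl1 encode enzymes and were higher, and were likewise set together after their values were seen. Qpct encodes glutaminyl cyclase, which modifies the amino end of secreted peptides. It was at 6.72, 6.83 and 6.39 in WT and at 7.45, 7.63 and 8.01 in Mst1KO (1.05 ± 0.15, limma adjusted p = 0.00671). Acss2, which makes acetyl-CoA from acetate, was at 6.82, 6.91 and 6.58 in WT and 7.87, 7.55 and 7.45 in Mst1KO (0.86 ± 0.15). Ada was at 6.74, 6.35 and 6.20 in WT and at 7.22, 7.26 and 7.17 in Mst1KO (0.79 ± 0.13), and Uckl1, a uridine-cytidine kinase gene, was higher by 0.57 ± 0.12. Qpct was called in all 6 fits without an S1 array, Acss2 in 2, Ada in 1 and Uckl1 in 0. Of 31 insulin, PI3K and mTOR genes Irs1 was the only one called and 22 were above 0, with a median of 0.11. Pik3ip1, an inhibitor of PI3K in T cells, was at 0.45 ± 0.15 and the kinase gene Sgk1 at 0.36 ± 0.15 (adjusted p = 0.232 and 0.379).

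The remaining increases were of mixed roles. Klf6 (0.71 ± 0.14), the Polycomb-related gene Scml4 (0.67 ± 0.11), the pseudokinase gene Trib2 (0.63 ± 0.11) and Slfn5 (0.63 ± 0.12), a Schlafen gene induced by type I interferon, were higher. So were Wfikkn2, a secreted inhibitor of the TGF-beta family member myostatin (0.87 ± 0.14), the centriole gene Spice1 (0.72 ± 0.13), Ccdc88c (0.39 ± 0.08), Tdrp (0.75 ± 0.13) and Efcab9 (0.84 ± 0.16). Efcab9, Tdrp and P2ry10b were dim: their WT means of 4.31, 4.68 and 5.0 lay near the array medians. Of 31 interferon-induced genes tested Slfn5 alone was called and 19 were above 0, with a median of 0.08. Oas2 was at 0.41 ± 0.13 and Gbp3 at -0.47 ± 0.17 (limma adjusted p = 0.225 and 0.27).

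Quiescence and egress genes, which hold resting T cells out of the cell cycle and guide them out of the thymus, lay higher almost throughout. Of 20 tested only Klf6 was called, while 19 were above 0 (95%, against 51.9% of all genes). In 14 the genotypes did not overlap (70%, against 18.1%). Like the other lists, this one was chosen with earlier results of these data known. Its genes are not all independent of each other either, so these shares are a description. The median was 0.36, and it stayed between 0.31 and 0.41 under every alternative tried. Txnip, which limits glucose uptake, was at 10.12, 9.79 and 9.55 in WT and at 10.42, 10.54 and 10.39 in Mst1KO. Klf2, the factor that drives S1pr1, was at 6.79, 6.95 and 6.46 in WT and at 7.57, 7.54 and 7.50 in Mst1KO. On both genes each Mst1KO array exceeded each WT array. Cdkn1b, an inhibitor of cyclin-dependent kinases, was at 0.46 ± 0.12, Foxo1 at 0.28 ± 0.10 and Klf3 at 0.62 ± 0.20, with limma adjusted p of 0.138, 0.27 and 0.221. The same list had a median of 0.22 at S2 and -0.03 at S3. S1pr1 went from 0.68 ± 0.16 at S1 to 2.32 at S3, and that difference between stages was itself called (-1.64 ± 0.23, adjusted p = 0.00153).

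Markers of conventional mature T cells, which share S1pr1, Klf2 and Ccr7 with that list, lay higher on the same arrays. Of 12 tested none was called by limma, and 5 had an unadjusted p under 0.05, where 11.2% of all genes did. The differences of 10 were above 0 (83.3%, against 51.9% of all genes), with a median of 0.27. In 7 the genotypes did not overlap (58.3%, against 18.1% of all genes). The summed linear level of 13 such markers ran from 5170 to 6239 on the WT arrays and from 6737 to 7264 on the Mst1KO arrays, without overlap, and none was below the array median throughout. Cd8b1, at 0.80 ± 0.30 (adjusted p = 0.313), was at 0.38 without Mst1KO replicate 1. Summed NK and innate lymphoid markers ran from 188 to 231 in WT and from 240 to 251 in Mst1KO, with Ncr1, Eomes and Klri2 below the array median on all 6. Summed B cell markers ran from 863 to 1087 and from 1286 to 1667, mostly from Ighm, with 8 of 10 markers, Cd79a and Pax5 among them, below the array median on all 6. Ighm was at 0.68 ± 0.15 (limma adjusted p = 0.068) on its brightest probe set and at 0.05 (adjusted p = 0.918) with the mean of its probe sets. The sums of the other marker lists overlapped between genotypes: iNKT, gamma-delta T, immature thymocyte, macrophage and dendritic, granulocyte, erythroid and stroma. Double-positive and immature thymocyte markers ran from 605 to 669 in WT and from 585 to 735 in Mst1KO. Those of iNKT cells ran from 17089 to 18299 in WT and from 18224 to 19124 in Mst1KO. The part of other cells in the quiescence and surface genes was not tested. In bulk RNA, more cells of a type and more RNA per cell cannot be told apart.

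Genes of cell division leaned the other way by small amounts. Of 26 DNA replication genes, 25 were below 0, with a median of -0.16 and a range from -0.33 to 0.15. Of 26 mitosis genes, 25 were below 0, with a median of -0.17 and a range from -0.39 to 0.01. None of either list was called by limma, with 0 replication genes and 1 mitosis gene at an unadjusted p under 0.05. Mcm6, a subunit of the replicative helicase, was at -0.20 ± 0.10, and the ribonucleotide reductase gene Rrm1 at -0.33 ± 0.18. Cenpf, a kinetochore protein gene, was at 7.41, 7.31 and 7.30 in WT and at 7.05, 6.99 and 6.83 in Mst1KO (-0.39 ± 0.16, adjusted p = 0.373), and Cdc20, the activator of the anaphase-promoting complex, was at -0.32 ± 0.16. Genes of the cell cycle are not independent of each other, so 25 of 26 is a description. Both medians stayed below 0 under every alternative tried, from -0.20 to -0.11 for replication and from -0.22 to -0.10 for mitosis. In 6 genes of each list the genotypes did not overlap, all lower in Mst1KO (23.1%, against 18.1% of all genes). The medians were also below 0 at S2, at -0.25 for replication and -0.34 for mitosis. At S3 they were above 0, at 0.21 and 0.56.

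Genes of the Hippo pathway and of TCR signalling showed small differences. None of 26 Hippo pathway genes and MST partners was called by limma, and 5 had an unadjusted p under 0.05, where 11.2% of all genes did. The 26 differences ran from -0.29, that of Stk4, to 0.32, with a median of 0.04. Of them 17 were above 0 (65.4%, against 51.9% of all genes), and in 8 the genotypes did not overlap (30.8%, against 18.1%). Rassf2, which binds MST1 through its SARAH domain, was at 8.85, 8.65 and 8.93 in WT and 9.06, 9.24 and 9.07 in Mst1KO (0.31 ± 0.10, adjusted p = 0.248). Lats2 was at 0.30 ± 0.12, the NDR kinase gene Stk38 at 0.26 ± 0.12 and Sav1 at 0.32 ± 0.17. Of 25 proximal T cell receptor (TCR) signalling genes none was called and 5 had an unadjusted p under 0.05, with a median of 0.09 and Rasgrp1 at 0.46 ± 0.13. In this list 19 were above 0 (76%, against 51.9% of all genes), and in 9 the genotypes did not overlap (36%, against 18.1%). Of 25 genes induced by TCR signals none was called and 4 had an unadjusted p under 0.05, with a median of 0.01. Here 13 were above 0 (52%), and in 8 the genotypes did not overlap (32%, against 18.1% of all genes). Tagap was at 0.46 ± 0.11 and Cd5, whose level follows TCR signal strength, at 0.36 ± 0.09 (adjusted p = 0.0742 and 0.116).

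Immediate early genes, which respond to handling as well as to signals, had none called of 24. An unadjusted p under 0.05 was seen for 5, where 11.2% of all genes had one. The list's median was 0.09, with 18 above 0 (75%, against 51.9% of all genes). In 6 the genotypes did not overlap (25%, against 18.1% of all genes). Ppp1r15a, a stress gene that restores translation, was at 8.89, 8.79 and 8.91 in WT and at 9.33, 9.37 and 9.49 in Mst1KO (0.53 ± 0.11, limma adjusted p = 0.0533). Fos was at 6.62, 6.75 and 7.08 in WT and 7.70, 7.57 and 7.52 in Mst1KO (0.78 ± 0.21, adjusted p = 0.142). Of 26 transcription regulators of iNKT and T cells none was called and 4 had an unadjusted p under 0.05, with differences from -0.38 to 0.32. Among these 26, 15 were above 0 (57.7%, against 51.9% of all genes), and in 9 the genotypes did not overlap (34.6%, against 18.1%). Bcl11b, which keeps T cell identity, was at 0.32 ± 0.09 and Ets1 at 0.21 ± 0.08 (adjusted p = 0.142 and 0.278).

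**Figure D4:**
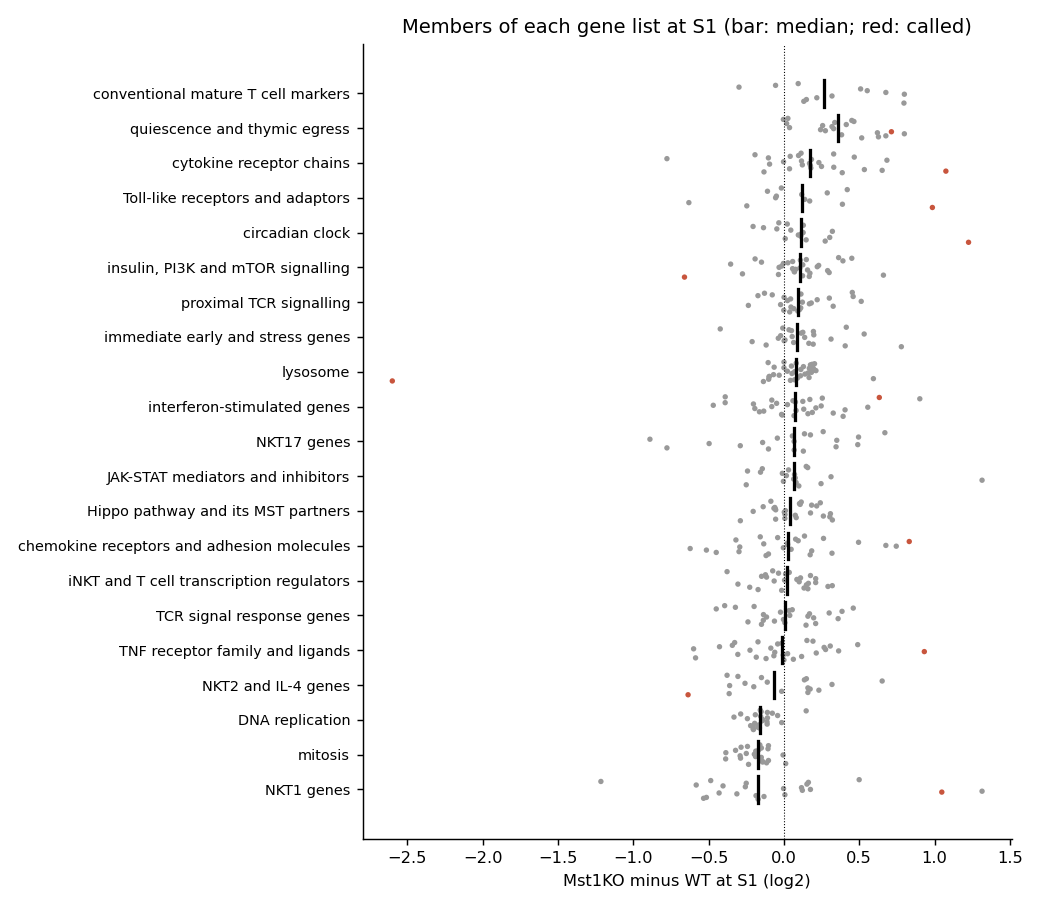
Genotype difference at S1 (Mst1KO minus WT, log2) of the members of the pathway and cell state lists and of the conventional mature T cell markers; each point is a gene, red points were called, and the bar is the list's median. Among the lists plotted, the quiescence list has the highest median (0.36) and the NKT1 and mitosis lists the lowest (-0.17 each).

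Some large differences did not pass. Of 18 genes over 2-fold apart at S1, 11 were not called, 6 higher and 5 lower, and in 9 of them the genotypes did not overlap. In the 5 lower ones WT replicate 3 was the highest array. Cdh1, the E-cadherin gene, was at 6.46, 6.80 and 8.90 in WT and at 5.90, 5.88 and 5.95 in Mst1KO, and its difference of -1.48 ± 0.45 was -0.72 without that array. Gzma, the granzyme A gene, was at 4.93, 4.83 and 7.24 in WT and at 4.26, 4.41 and 4.69 in Mst1KO, and its -1.22 ± 0.44 became -0.43. Vdr, the vitamin D receptor gene, went from -1.19 to -0.67 without that array, the Notch target Hey1 from -1.05 to -0.48 and Rab25, which directs epithelial recycling, from -1.26 to -0.68. On the higher side stood Stat4 and Ms4a4c (1.31 ± 0.31), both with scattered Mst1KO arrays, 5730480H06Rik (1.1 ± 0.27) and the microRNA genes Mir23b (1.22 ± 0.34), Mir342 (1.17 ± 0.32) and Mir701 (1.82 ± 0.56). Mir23b was at 4.87, 4.80 and 4.71 in WT and 5.93, 6.35 and 5.77 in Mst1KO, and Mir342 at 6.68, 6.96 and 6.02 and at 7.66, 7.88 and 7.62 (limma adjusted p = 0.15 and 0.145). Both showed separate groups. Which RNA these probe sets read, a host transcript, a precursor or the mature microRNA, is not stated.

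The 43 genes were then followed into S2 and S3, on arrays that did not enter the S1 difference, although they entered the shared estimate of spread. Whether these arrays came from the same mice as the S1 arrays is not stated, so the stages may not be independent. Of the 43, 40 had the same sign at S2, where 59.7% of all genes did, and 35 at S3, where 57% did. At S2, 152 genes were called (1.17%) and 19 of them were among the 43, which is 44.2% of the 43 and 12.5% of the 152. At S3, 443 were called (3.4%) and 12 were among the 43 (27.9% of the 43, 2.71% of the 443). The higher genes had medians of 0.70, 0.38 and 0.20 at S1, S2 and S3, and the lower ones -0.70, -0.56 and -0.18. Having been chosen for their S1 values, the 43 would tend to show less elsewhere. Of the 43, 10 were called at all 3 stages and 22 at S1 alone. The 10 were Atp8a2, Il4, Serinc3, Anxa6, Klf6, Spice1, Itga4, Tnfrsf25, Tlr1 and Nr1d1.

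Tlr1, Itga4 and Atp8a2 had larger differences at S3 than at S1. Tlr1 differed by 0.99 at S1, 1.07 at S2 and 2.21 at S3, where its WT mean had dropped from 8.79 at S1 to 5.48. Itga4 differed by 0.83, 0.88 and 1.93, and Atp8a2 by -0.93, -1.0 and -2.45. The S1 minus S3 test was called for each, at -1.22 ± 0.17, -1.1 ± 0.21 and 1.52 ± 0.24 (limma adjusted p = 0.00163, 0.0197 and 0.0043). Nr1d1 was nearly even, at 1.23, 1.57 and 1.45, and Il4 was at -0.64, -1.11 and -0.98.

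Laptm4b and Matn2 differed most at S1. Laptm4b was the only one of the 43 whose difference changed between S1 and S2 by test, -2.37 ± 0.30 (limma adjusted p = 0.00424), 1 of 2 such genes in all (0.0153%). It was -0.23 at S2 and -0.27 at S3, with WT means of 8.59 and 7.52 there. Matn2 was -1.42 at S2 and 0.23 at S3, and differed between S1 and S3 by -2.50 ± 0.30 (adjusted p = 0.00066). S1 minus S3 was called for 73 genes (0.56%), 9 of them among the 43: besides the 5 named, Fcho2, Qpct, Il4ra and Ddx43, which had differences of -0.19, -0.18, -0.46 and 0.34 at S3. Without Mst1KO replicate 2 of S1 that count was 48.

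For 5 of the higher genes, chosen after their values were seen, the levels at the WT stages are set beside that of Mst1KO at S1, with no test of the stages. Il4ra had WT means of 6.27, 7.57 and 9.43 at S1, S2 and S3, and 7.34 in Mst1KO at S1. Neurl3 had WT means of 7.22, 8.96 and 11.43 and was at 8.60 in Mst1KO at S1, and Ly6c2 had 8.59, 10.60 and 12.41 and was at 9.64. In these 3 the Mst1KO S1 mean lay between the WT means of S1 and S2. Genes called higher must lie above the WT S1 mean, so that side was fixed in advance. The other called genes were not counted in this way. Tlr1 had WT means of 8.79, 8.60 and 5.48 and Wfikkn2 7.50, 7.58 and 5.24, while in Mst1KO at S1 they were at 9.78 and 8.37, above all 3 WT stages. Both kinds of difference use the same WT S1 arrays, so they are set side by side and not related to each other.

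**Figure D5:**
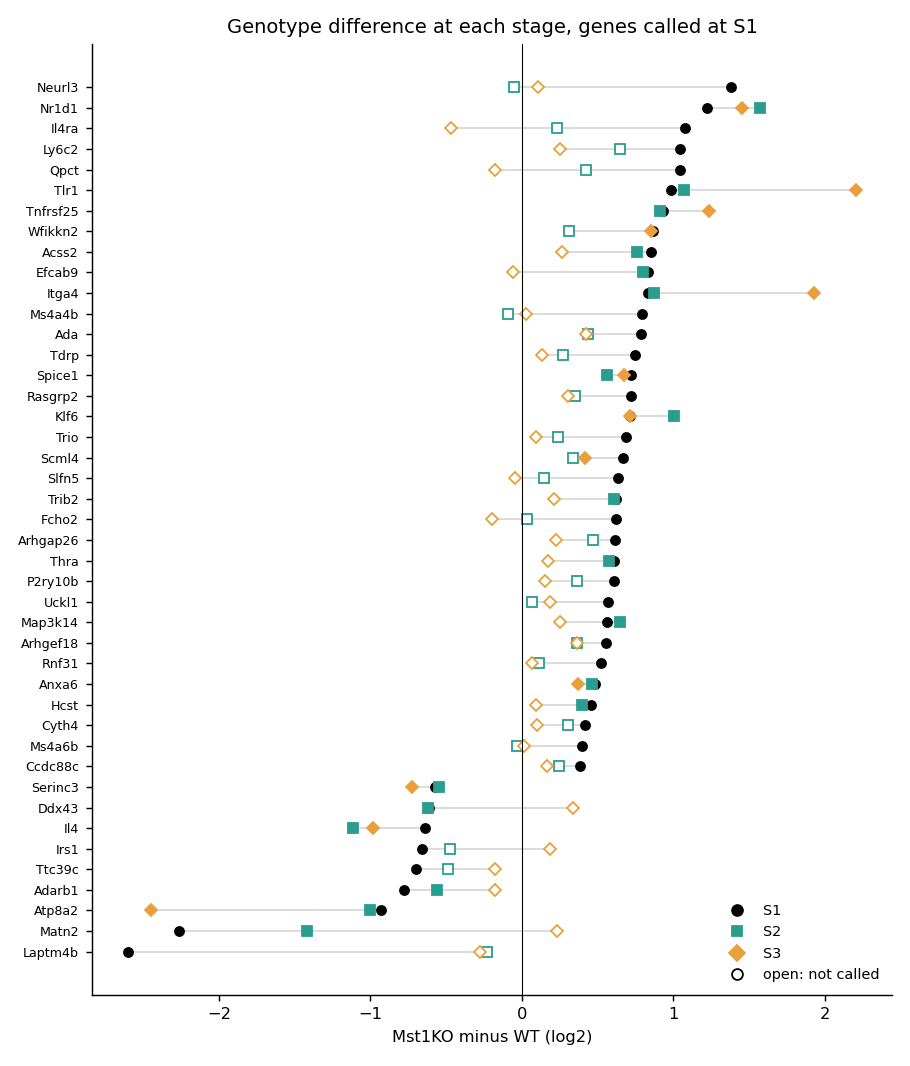
Genotype difference (Mst1KO minus WT, log2) at S1 (black circles), S2 (green squares) and S3 (orange diamonds) of the 43 genes called at S1; filled symbols were called at that stage. Laptm4b and Neurl3 lie near 0 at S2 and S3, whereas Tlr1, Itga4 and Atp8a2 lie furthest from 0 at S3.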

How the data were processed

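Expression was measured on Affymetrix MoGene-2_0 arrays, from 1 to 20 ng of total RNA amplified with the NuGEN WTA Pico method, per the labels' protocols. The authors deposited log2 values, 1 for each probe set, and the submitters' processing notes name RMA and Affymetrix Expression Console 1.1. RMA corrects background, gives the arrays a common distribution and summarises probes, so differences of dim genes are compressed. Values ran from 1.46 to 13.5. The number of arrays limits the precision.

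Of 41345 probe sets 23521 carried 1 gene symbol, and 13702 of these exceeded the median of their array in 3 or more of the 18. Where a gene had several (513 genes), the brightest was kept, leaving 13034 genes. All 18 arrays were fitted with a mean per group in limma 3.58.1 (R 4.3.3, statmod 1.5.0), with Benjamini-Hochberg adjustment over all genes per comparison. The spread thus comes from all 6 groups. The stage comparisons are contrasts of the same fit. Summed marker levels add linear values.

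The genes described and the lists were chosen with earlier results of these data known, and called genes outside lists were grouped by role after their values were seen. Named genes are Stk4 and Stk3, all called genes (the 15 largest each way first), up to 4 members of each list by lowest p, the 8 genes of lowest p for each stage comparison, and further list members with their values. Uncalled genes over 2-fold apart were named after their values were seen. Lists were described by counts and medians, with no test of the list. RefSeq (GRCm38.p6) served for names, gene order and promoters, while no source used here gives the build behind the probe sets. The model was tested on simulated data. Alternatives were other filters, normalizations, variance models, probe set means, blocks, fewer arrays and a 1.5-fold minimum. Python 3.11.15 with pandas 2.3.3 and matplotlib 3.10.9 drew the figures.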

Additional observations from a re-analysis of the deposited data

Results flagged for a closer look

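The genotype difference at S1 differed from that at a later stage, by a test of the difference itself in limma with Benjamini-Hochberg adjustment over all genes, for the 20 genes that follow among those the report covers; each value is the S1 difference minus the later one, on the log2 scale. Against S2 these were Laptm4b at -2.37 ± 0.30 and Rnf43, a ubiquitin ligase gene that dampens Wnt receptors, at -1.69 ± 0.18. Rnf43 was at -0.43 at S1 and 1.26 at S2, and its difference from S3 was -0.88 ± 0.18.

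Against S3, 3 genes of the NKT17 list were below 0 at S1 and above it at S3. Serpinb1a was at -0.50 and 2.64, a change of -3.14 ± 0.37. Blk was at -0.89 and 2.39 (-3.28 ± 0.43), with WT replicate 3 the highest WT array at S1, at 7.85. Il1r1, the IL-1 receptor gene, was at -0.78 and 2.14 (-2.92 ± 0.40). Outside that list Pde5a, which breaks down cyclic GMP, was at -0.47 and 2.65 (-3.12 ± 0.35), Myb at -0.31 and 1.46 (-1.76 ± 0.22) and Pdlim1 at 0.14 and 1.64 (-1.50 ± 0.16). None of these 6 was called at S1.

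Among genes above 0 at S1, S1pr1 was at -1.64 ± 0.23, Tlr1 at -1.22 ± 0.17 and Itga4 at -1.1 ± 0.21, each with a larger difference at S3 than at S1. Il4ra was at 1.54 ± 0.25, Qpct at 1.22 ± 0.21, Fcho2 at 0.82 ± 0.12, Tnfsf8 at 1.1 ± 0.23 and Btg2 at 0.71 ± 0.14, each above 0 at S1 and below 0 at S3. Ifitm1, an interferon-induced gene, was at -0.05 at S1 and -2.21 at S3, a change of 2.16 ± 0.25. Of the genes lower at S1, Laptm4b changed by -2.33 ± 0.30, Matn2 by -2.50 ± 0.30 and Ddx43 by -0.95 ± 0.14, all nearer 0 or above it at S3, and Atp8a2 by 1.52 ± 0.24, being lower still at S3.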

How the results depend on the processing

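The main count at S1 was 43 genes, 34 higher and 9 lower. With no filter it was 28 (21 higher), with a filter at the 75th percentile 93 (71 higher, 22 lower), with a variance trend and robust fit 128 (89 and 39), with array weights 93 (65 and 28), on only the S1 arrays 5 (2 and 3; 1482 genes had an unadjusted p under 0.05), and with a 1.5-fold minimum 2 (0 and 2). Leaving out an S1 array gave 9 to 23 genes, 6 to 17 higher and 3 to 6 lower. Repeated quantile normalization gave 39 and median centring 53. Of the main 43, 37 stayed called after the stricter filter, which tested 37 of them, 27 without a filter and 4 on only the S1 arrays. For S1 minus S2, the main count of 2 was 0 with the 1.5-fold minimum, and 2 to 3 without an array. For S1 minus S3, the main 73 became 116 with the variance trend and robust fit, 123 with array weights, 14 with the 1.5-fold minimum and 48 to 65 without an array.

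Replicate numbers are shared by the genotypes, and the labels do not say what a number marks. Deviations of same-numbered S1 arrays correlated only weakly, at 0.08, 0.02 and 0.07, although each array correlated best with its own number. Whether the arrays are paired is therefore not settled. With the number as a replicate block 51 genes were called at S1, 36 higher and 15 lower, with 37 of the main 43 among them, and 4 genes for S1 minus S2.

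Of 2206 values of single genes under the alternatives, 1871 kept direction and side of the threshold, 290 lost their call, 43 gained one and 2 changed sign. Those 2 were the S1 difference of Ifitm1, -0.05 in the main fit, which was 0.0091 without WT replicate 2 and 0.0018 without WT replicate 3; over the fits without an S1 array it ran from -0.16 to 0.0091. Of 508 list medians 43 moved by more than the spread. The depth limit on arrays is the background: 38 of the 43 genes had both means above the highest array median, and of the 11 uncalled genes over 2-fold apart 5 had both means under 6.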

Other observations

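Probe sets outside the single-symbol genes were fitted apart at S1 with limma and Benjamini-Hochberg adjustment. Of 8443 with no gene symbol 3 were called (0.0355%). Probe set 17550687 was higher in Mst1KO by 3.13 ± 0.46, from 5.10 to 8.23, a larger increase than that of any named gene called at S1, and differed by 1.5 at S2 and 2.51 at S3. Probe set 17300141 was higher by 2.59 ± 0.34, from 2.95 to 5.55, with -0.40 at S2 and 0.09 at S3. Probe set 17262340 differed by -0.85 ± 0.12, from 10.28 to 9.43. Of 1021 with several symbols 2 were called (0.196%): the one shared by Lpar6 and Rb1, at 0.54 ± 0.10, and the one shared by 4930562F07Rik and 4930523C07Rik, at 0.56 ± 0.10.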
